A study of Mus musculus with 9 samples.

Results

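The 39 genes described here encode the machinery of glycolysis and of the cellular response to low oxygen, and they were taken by gene symbol from a table of read counts for 33924 genes. Of these, 21 were glycolytic: 2 glucose transporters, 14 enzymes of the pathway, 3 genes that set the fate of pyruvate and 2 bifunctional regulators. The other 18 belonged to the hypoxia-inducible factor (HIF) system, 5 as regulators and 13 as targets outside glycolysis. All 39 were found in the table and all 39 were among the 14772 genes with enough reads to be tested. RNA had been sequenced from mouse embryonic stem cells, described in the labels as male for every group and kept on gelatin in serum medium with the cytokine LIF, with no treatment. Each of 3 groups held 3 libraries: a knockout of UTX, the H3K27 demethylase encoded by the X-linked gene Kdm6a, cells labelled as a knockdown of MLL4, the enhancer H3K4 methyltransferase encoded by Kmt2d, and UTX wild type cells. The library titles name A6 for the UTX knockout and JM8A, a mouse embryonic stem cell line, for the other groups, and they add a further number for the labelled MLL4 knockdown. The labels explain neither A6 nor that number and do not say how the knockdown was made, so a difference of line or clone cannot be told apart from the perturbation. The series title links UTX, MLL4 and p300, an acetyltransferase, in a transcriptional network, and the comparisons ask how transcript levels differ when UTX is lost or MLL4 is targeted.

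Glycolysis splits glucose into pyruvate through a chain of cytosolic enzymes, most of which come as paralogs with their own tissue range, and pyruvate is then either reduced to lactate or burned in mitochondria. HIF is a transcription factor made of an oxygen-regulated alpha subunit, encoded by Hif1a or Epas1, and a stable beta subunit. When oxygen is present, prolyl hydroxylases of the Egln family mark the alpha subunit for destruction through the ubiquitin ligase that contains VHL. When oxygen is scarce the alpha subunit escapes and binds short DNA elements near its targets, among them most glycolytic genes, so the subunit is controlled largely as a protein and its transcript level does not report its activity. Mouse embryonic stem cells use both glycolysis and mitochondrial respiration.

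Total counts per library lay between 18570746 and 23874816. Levels are given as CPM, read counts scaled to library size by TMM, in the order of replicates 1, 2 and 3, libraries are numbered by replicate, and a gene is said to rise, fall or change only where edgeR's quasi-likelihood test with Benjamini-Hochberg adjustment over 14772 genes gave an adjusted p under 0.05. Where a call ended when a library was left out, the adjusted p without it follows that library in brackets. Kdm6a averaged 16.4 ± 3.33 CPM in the UTX knockout and 78.9 ± 18.9 CPM in wild type (SD, n = 3 each), with a log2 fold change of -2.27 and adjusted p = 0.000155. Kmt2d, which the table calls Mll2, averaged 72.1 ± 1.21 CPM in the labelled MLL4 knockdown and 82.9 ± 37.9 CPM in wild type, and its log2 fold change of -0.20 (95% interval -0.79 to 0.39, adjusted p = 0.624) did not pass the test. The comparison with wild type thus does not bear out that label, but its interval is wide and includes a fall. In the UTX knockout Kmt2d averaged 112.2 ± 16.7 CPM. Every labelled MLL4 knockdown library lay below every UTX knockout library (log2 fold change -0.64). Kmt2d was called lower there with the replicate number as a block, but not by edgeR's test without the block or by DESeq2. Reading any direction in these libraries as an effect of MLL4 depends on the label being right. Uty, the Y-linked paralog of Kdm6a, averaged 0.828 ± 0.0696 CPM in the UTX knockout, 0.987 ± 0.228 CPM in the labelled MLL4 knockdown and 14.1 ± 3.83 CPM in wild type (SD, n = 3 each). It was called lower than wild type in the UTX knockout (log2 fold change -4.07, adjusted p = 3.95e-05) and in the labelled MLL4 knockdown (-3.83, adjusted p = 7.80e-06). Both perturbed groups thus differ from wild type in a gene that neither label names as a target, and the part of this difference between the cells in the results was not tested. All 10 embryonic stem cell markers were detected, with summed levels of 6489 to 7078 CPM in the UTX knockout, 6511 to 7178 in the libraries labelled MLL4 knockdown and 5178 to 6217 in wild type. Single markers moved both ways against wild type. In the UTX knockout 1 was called higher and 1 lower, against 6.55% and 8.92% of all tested genes. In the labelled MLL4 knockdown 4 were higher and 2 lower (log2 fold changes from -1.08 to 1.47), against 10.8% and 15.8% of all tested genes. The 10 feeder or fibroblast markers, of which 5 were tested, summed to 13.7 to 27.3 CPM in the UTX knockout, 19.3 to 21.7 in the labelled MLL4 knockdown and 46.5 to 229.7 in wild type, with the lowest wild type value in replicate 1 and Lum at 0 throughout, and Col3a1, Postn and Dcn also at 0 in the UTX knockout. The 7 primitive endoderm markers, of which 6 were tested, summed to 15.6 to 19.4 CPM in the UTX knockout, 30.05 to 32.6 in the labelled MLL4 knockdown and 12.9 to 17.1 in wild type, with none at 0. Against wild type 2 of these were called higher and 1 lower in the UTX knockout, and 3 higher and 0 lower in the labelled MLL4 knockdown. In such bulk samples, fewer cells of a type and less RNA per cell cannot be told apart. Separate cultures are not named in the labels, so each p-value reflects the spread among the libraries at hand, and that spread may be technical. Replicate 2 of every group was sequenced in lane 1 and the others in lane 2.

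Per kilobase of transcript, the 39 genes spanned more than 3 orders of magnitude. The aldolase gene Aldoa, at 1634 CPM per kilobase in wild type, Gapdh at 1439 and the enolase gene Eno1 at 1014 led the list, followed by the lactate dehydrogenase gene Ldha at 974. The lowest were the carbonic anhydrase gene Car9 at 0.959, the bifunctional regulator Pfkfb4 at 1.12, the second enolase gene Eno2 at 5.63 and the peptide hormone gene Adm at 6.38. HIF regulators lay in between, with Hif1a at 20.3 CPM per kilobase in the UTX knockout, 35.8 in the labelled MLL4 knockdown and 24.03 in wild type, and Epas1 at 23.6 in the UTX knockout, 22.1 in the labelled MLL4 knockdown and 14.5 in wild type. Transcripts of both alpha subunits were present in every wild type library, with 124, 96.95 and 119 CPM of Hif1a and 62.5, 69.6 and 107 CPM of Epas1.

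**Figure D1:**
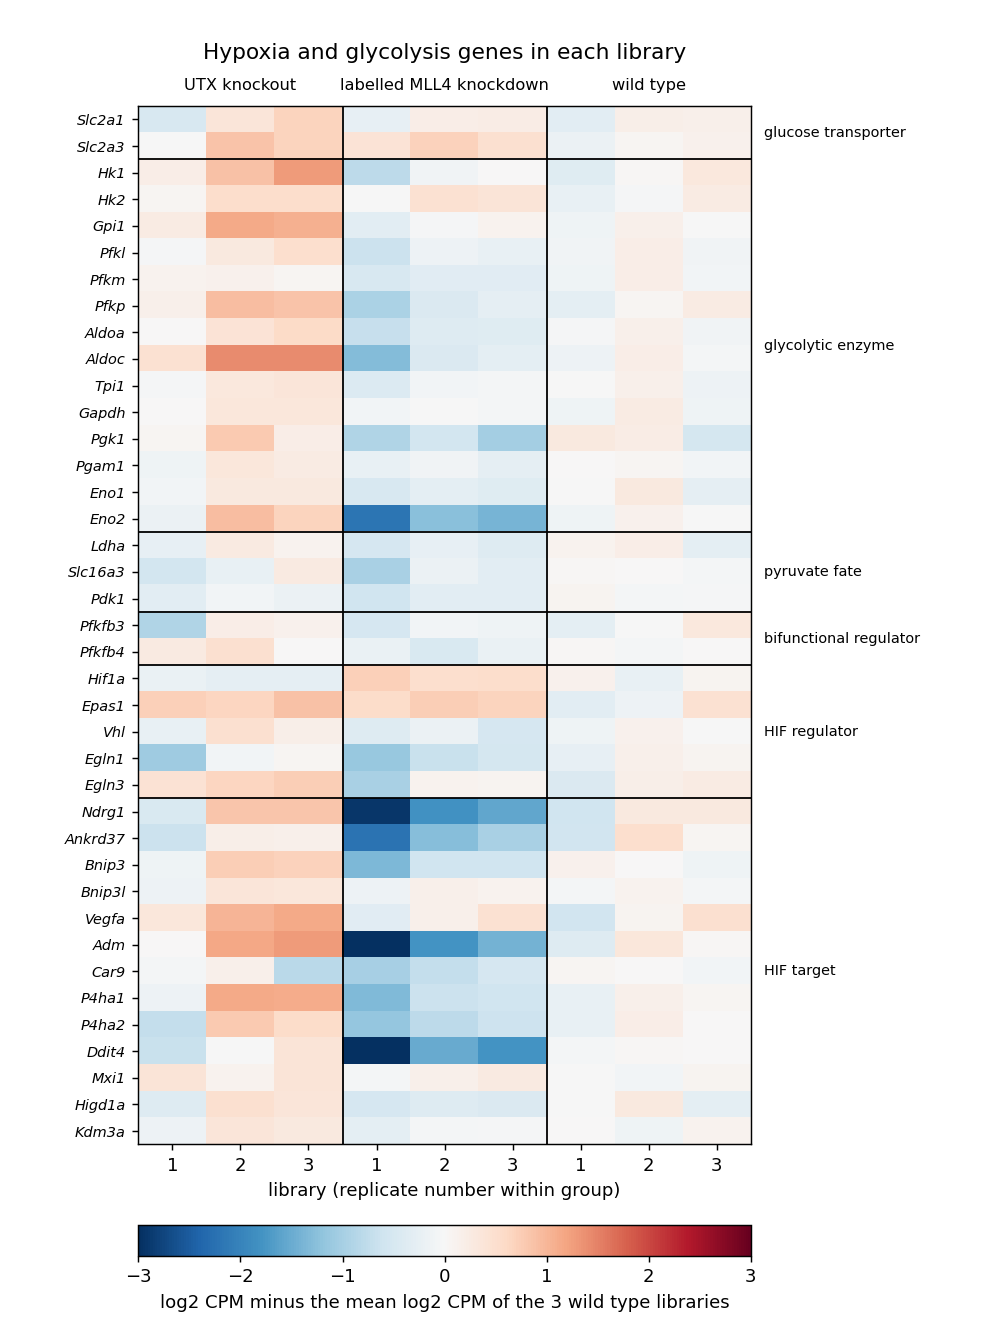
Level of each of the 39 genes in each of the 9 libraries, as log2 CPM minus the mean log2 CPM of the 3 wild type libraries (colour), with genes down the page by role and libraries across by group and replicate number. The libraries labelled MLL4 knockdown are blue for most enzymes and targets, deepest for Ndrg1, Adm and Ddit4 in replicate 1, while UTX knockout replicates 2 and 3 are red for most enzymes and targets and replicate 1 is paler.

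In the UTX knockout, 3 of the 39 genes rose against wild type and 0 fell. The glycolytic enzyme genes Gpi1 and Aldoc rose by 0.86 and 1.16 on the log2 scale, and Epas1, which encodes HIF-2 alpha, rose by 0.71. Over all tested genes, 6.55% were called higher and 8.92% lower, so the share of the 39 genes called higher, 7.69%, was near the background in this fit. The 0 calls of a lower level stayed at 0 at an unadjusted p under 0.05 and with DESeq2, which called 8 of the 39 higher and 9.13% of all genes it tested. They did not stay at 0 under every alternative: Hif1a was called lower without wild type replicate 2 and with the transcript length trend removed, and Pdk1 with that trend removed and the replicate block. All 14 glycolytic enzyme genes had a positive log2 fold change, with a median of 0.35, and over the 39 genes the median was 0.27, against -0.01 over all tested genes. All 3 UTX knockout libraries lay above all wild type libraries for 5 of the 39 genes (15.5% of all tested genes) and below them for 1 (16.0%). With the replicate number as a block, which pairs libraries of the same number, 12 of the 39 were called higher, 6 glycolytic and 6 of the HIF system, and 0 lower. That block called 10.5% of all tested genes higher and 12.8% lower, so with it the 30.8% of the 39 genes called higher lay above the background, not near it. Without replicate 1 of every group, a setting chosen after seeing the data, the calls were 7 glycolytic genes and 7 of the HIF system. Without UTX knockout replicate 1 alone they were 7 and 5, without UTX knockout replicate 2 or 3 they were 0 and 0, and without wild type replicate 3 they were 1 and 2. Libraries of lane 2 alone gave 0 calls in either class, and lane 1, with 1 library per group, gives no test. The number of all tested genes called also moved when libraries were left out, so the counts from such fits are not read as a result about the 39 genes.

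Against wild type, the libraries labelled MLL4 knockdown had lower transcript levels of 11 of the 39 genes and higher levels of 2. The falls took in 5 glycolytic genes, Pfkm, Aldoa, Pgk1, Eno2 and Pdk1, and 6 genes of the HIF system, the oxygen sensor gene Egln1 and the targets Ndrg1, Ankrd37, Bnip3, Adm and Ddit4. The 2 rises were the HIF alpha subunit genes, Hif1a and Epas1. Ndrg1, Adm and Ddit4 fell the most, by about 2 on the log2 scale, to a fitted 0.242, 0.245 and 0.255 of their wild type levels. Over all tested genes, 15.8% were called lower and 10.8% higher, while among the 13 targets outside glycolysis 38.5% were called lower and 0 higher (0 at an unadjusted p under 0.05, 0 with DESeq2). Among the 21 glycolytic genes 23.8% were called lower and 0 higher, with 1 higher at an unadjusted p under 0.05 and 1 with DESeq2, which was Slc2a3 and for which 13.2% of all genes were called higher. The median log2 fold change was -0.81 over the 13 targets and -0.33 over the 21 glycolytic genes, against -0.02 over all tested genes. All 3 labelled MLL4 knockdown libraries lay below all wild type libraries for 22 of the 39 genes (22.4% of all tested genes) and wholly above for 3 (20.5%). With the replicate block the glycolytic calls were 10 lower and 1 higher and the HIF calls 8 lower and 2 higher, in all 18 lower and 3 higher of the 39, while 19.5% of all tested genes were called lower and 14.6% higher. The 5 glycolytic calls depended on single libraries: they were 1 without labelled MLL4 knockdown replicate 1 or 3, 2 without its replicate 2, 2 without wild type replicate 1 and 3 without wild type replicate 2. The 8 HIF calls were 5 without wild type replicate 2, and otherwise between 6 and 11 when any single library was left out. Without replicate 1 of every group the calls were 3 and 9, and libraries of lane 2 alone gave 1 and 2. The 3 and 9 pool both directions, with Slc2a3 called higher (log2 fold change 0.49, adjusted p = 0.0341). Calls over all tested genes moved as well when libraries were left out, so such counts are not read as a result about the 39 genes.

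Set directly against the UTX knockout, the libraries labelled MLL4 knockdown had lower levels of 21 of the 39 genes and a higher level of 1, Hif1a. The falls were 11 of the 14 glycolytic enzyme genes, 2 of the 5 HIF regulators and 8 of the 13 targets outside glycolysis, against 16.0% of all tested genes called lower and 13.0% called higher. Adm fell by 2.92 on the log2 scale, Ndrg1 by 2.50, Eno2 by 2.10, Ddit4 by 1.93 and Aldoc by 1.77. In all, 38 of the 39 log2 fold changes were negative, with a median of -0.54, against -0.02 over all tested genes. No glycolytic gene was called higher by edgeR's test, 0 were higher at an unadjusted p under 0.05 and 0 with DESeq2. Its libraries lay wholly below the UTX knockout for 22 of the 39 genes (26.9% of all tested genes) and wholly above it for 1 (25.7%). Calls numbered 13 and 13 with the replicate block, 10 and 13 without replicate 1 of every group, and 5 and 5 in lane 2 alone, counting glycolytic genes first and genes of the HIF system after them. Of the calls with the replicate block 25 were lower and 1 higher, while it called 19.7% of all tested genes lower and 17.0% higher. Without UTX knockout replicate 3 the 2 counts were 7 and 7, without UTX knockout replicate 2 they were 8 and 6, and without labelled MLL4 knockdown replicate 1 they were 8 and 7. Here too the calls over all tested genes moved when libraries were left out, and such counts are not read as a result about the 39 genes. This comparison shares its libraries with the other comparisons, so the same values enter more than once.

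**Figure D2:**
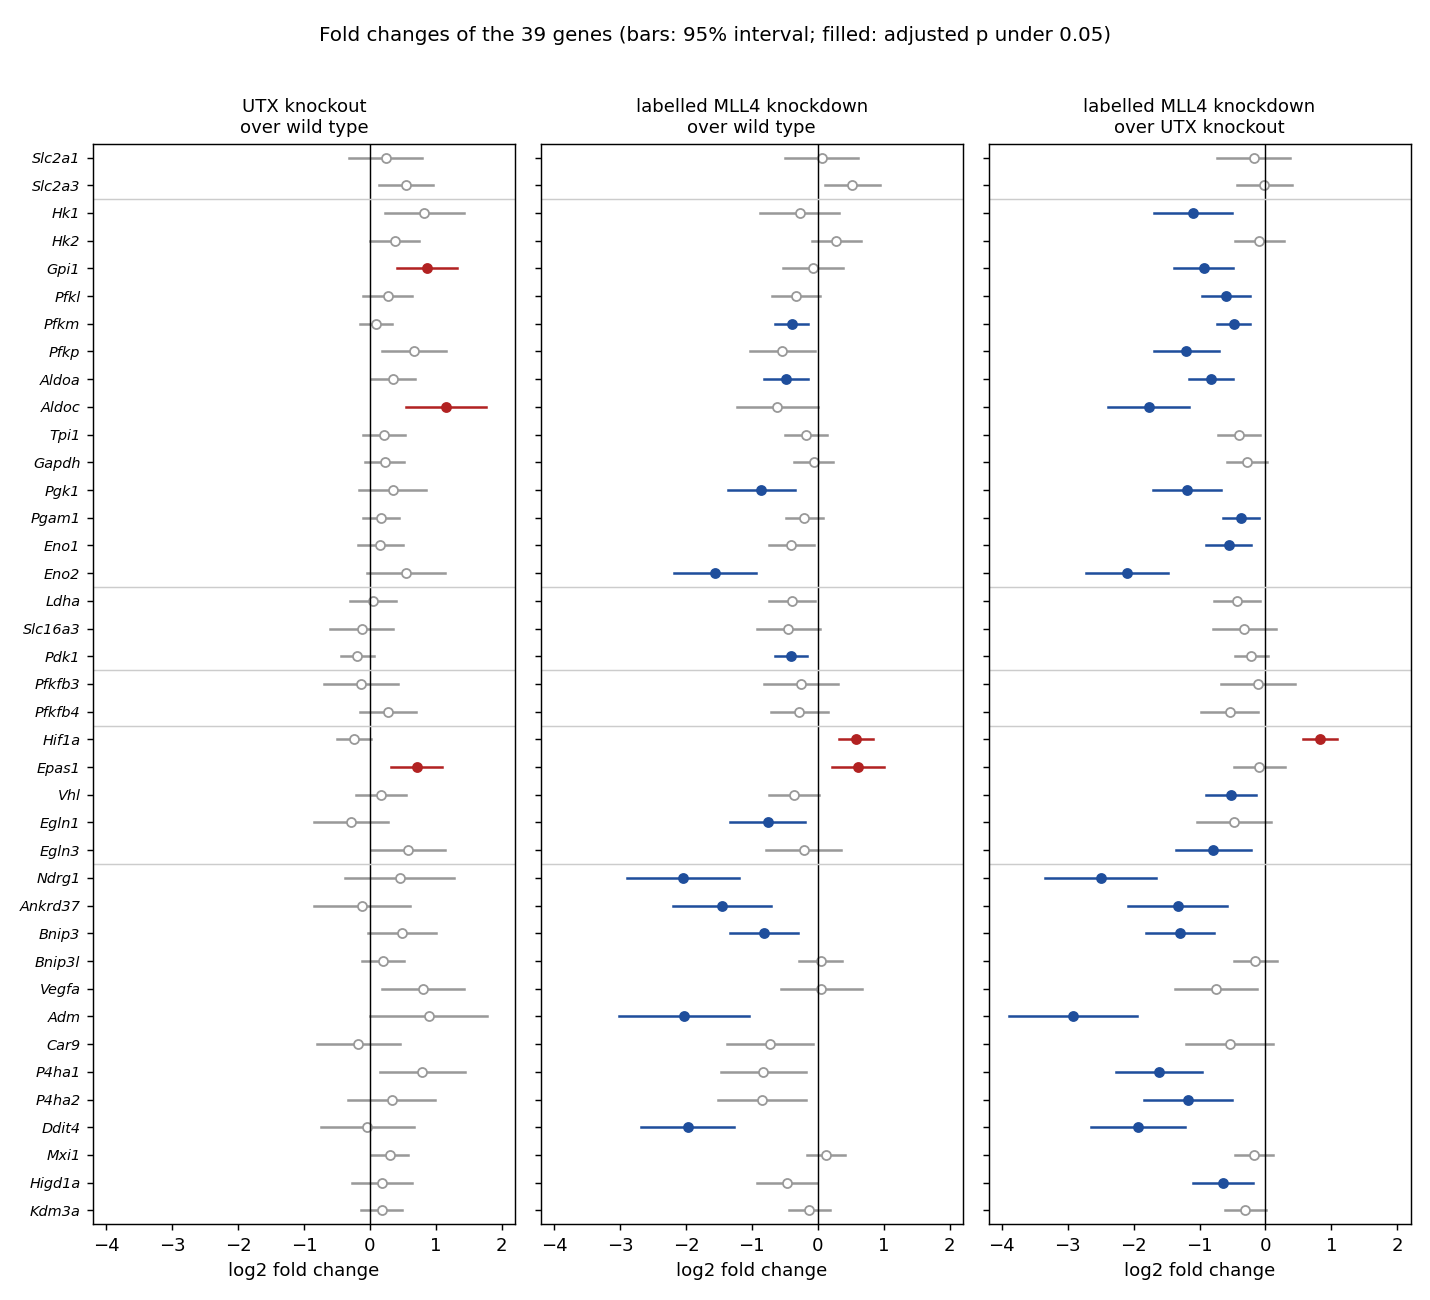
Log2 fold change of each of the 39 genes with its 95% interval in the 3 comparisons, with filled points where the adjusted p was under 0.05, red higher and blue lower. In the UTX knockout 3 points are filled, all red, in the libraries labelled MLL4 knockdown against wild type 11 are blue and 2 red, and between the perturbed groups 21 are blue and 1 is red.

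The glucose transporters stand at the entry of the pathway. Slc2a3 encodes GLUT3, a high-affinity transporter. Slc2a3 had 1833, 3305 and 2919 CPM in the UTX knockout, 2460, 2958 and 2545 CPM in the labelled MLL4 knockdown, against 1636, 1900 and 1994 CPM in wild type. All labelled MLL4 knockdown libraries lay above wild type, and the UTX knockout overlapped with wild type through its replicate 1. Neither difference passed the test (log2 fold change of 0.53 with SE 0.19, adjusted p = 0.0599 in the labelled MLL4 knockdown, and 0.54, SE 0.19, adjusted p = 0.0728 in the UTX knockout), although both did with the replicate block (adjusted p = 0.0144 in the labelled MLL4 knockdown and 0.0241 in the UTX knockout). Slc2a1, which encodes the widespread transporter GLUT1, lay between 667 and 1478 CPM over all 9 libraries with overlapping groups. Its log2 fold changes against wild type were 0.24 (95% interval -0.32 to 0.79) in the UTX knockout and 0.06 (95% interval -0.49 to 0.61) in the labelled MLL4 knockdown.

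The first steps of glycolysis trap and rearrange the sugar. Hk1 and Hk2 encode hexokinases, which phosphorylate glucose. Hk1 had 102, 163 and 213 CPM in the UTX knockout, 51.1, 81.9 and 89.6 CPM in the labelled MLL4 knockdown, against 69.2, 91.2 and 109 CPM in wild type. Every labelled MLL4 knockdown library lay below every UTX knockout library, and wild type overlapped with both. Hk1 fell between the perturbed groups (log2 fold change of -1.10 with SE 0.27, adjusted p = 0.0124), a call that ended without UTX knockout library 3 (0.0542). Against wild type the UTX knockout did not pass (0.82, SE 0.27, adjusted p = 0.0621), but did with the replicate block (adjusted p = 0.000756). Hk2 ranged from 400.4 to 671 CPM with overlapping groups and was called in the UTX knockout only with the replicate block (log2 fold change 0.38, with the replicate block adjusted p = 0.0282). Gpi1 encodes glucose-6-phosphate isomerase. Gpi1 had 1085, 2011 and 1938 CPM in the UTX knockout, 741, 895 and 989 CPM in the labelled MLL4 knockdown, against 841, 1017 and 911 CPM in wild type. All UTX knockout libraries stood above all others, with replicate 1 the closest to wild type. Gpi1 rose in the UTX knockout against wild type (log2 fold change of 0.86 with SE 0.21, adjusted p = 0.0185), a call that ended without UTX knockout library 2 (0.0863) or 3 (0.0648). It also fell in the labelled MLL4 knockdown against the UTX knockout (-0.94, SE 0.21, adjusted p = 0.00677), while against wild type the labelled MLL4 knockdown stood at -0.08 (95% interval -0.53 to 0.38).

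Pfkl, Pfkm and Pfkp encode the liver, muscle and platelet subunits of phosphofructokinase, the committed step of the pathway. Pfkl had 538, 682 and 792 CPM in the UTX knockout, 356, 496 and 477 CPM in the labelled MLL4 knockdown, against 519, 639.8 and 513 CPM in wild type. Pfkm had 78.4, 79.7 and 76.1 CPM in the UTX knockout, 52.2, 57.8 and 57.4 CPM in the labelled MLL4 knockdown, against 66.8, 83.7 and 69.5 CPM in wild type. Pfkp had 365, 617 and 591 CPM in the UTX knockout, 170.1, 241 and 272 CPM in the labelled MLL4 knockdown, against 264, 341 and 386 CPM in wild type. For all 3 subunits the labelled MLL4 knockdown lay wholly below the UTX knockout, and for Pfkl and Pfkm it lay wholly below wild type too. Between the perturbed groups Pfkp fell by 1.20 (SE 0.22, adjusted p = 0.00301), Pfkl by 0.60 (SE 0.17, adjusted p = 0.0219) and Pfkm by 0.48 (SE 0.11, adjusted p = 0.00882) on the log2 scale. Against wild type Pfkm was the only subunit called in the labelled MLL4 knockdown (log2 fold change of -0.39 with SE 0.11, adjusted p = 0.0252), and Pfkp joined it with the replicate block (-0.54, with the replicate block adjusted p = 0.00277). In the UTX knockout Pfkp stood at 0.67 against wild type (adjusted p = 0.0651, and with the replicate block adjusted p = 0.00193). The call of Pfkm against wild type ended without labelled MLL4 knockdown library 1 (0.0983), 2 (0.0716) or 3 (0.0693), and that of Pfkl between the perturbed groups without labelled MLL4 knockdown library 1 (0.0896) or UTX knockout library 2 (0.0673) or 3 (0.0874).

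Aldolase splits the phosphorylated sugar, and Aldoa and Aldoc encode its muscle and brain forms. Aldoa had 2556, 3374 and 3735 CPM in the UTX knockout, 1557, 1919 and 1956 CPM in the labelled MLL4 knockdown, against 2451, 2793 and 2351 CPM in wild type. Aldoc had 66.1, 129 and 128 CPM in the UTX knockout, 19.4, 35.7 and 39.5 CPM in the labelled MLL4 knockdown, against 43.4, 55.3 and 46.3 CPM in wild type. Both genes ran lowest in the labelled MLL4 knockdown with no overlap with either other group, and Aldoc in the UTX knockout lay wholly above wild type. Aldoa fell in the labelled MLL4 knockdown against wild type (log2 fold change of -0.48 with SE 0.15, adjusted p = 0.0368) and against the UTX knockout (-0.83, SE 0.15, adjusted p = 0.00262). Aldoc rose in the UTX knockout against wild type (log2 fold change of 1.16 with SE 0.28, adjusted p = 0.01901) and was lower in the labelled MLL4 knockdown than in the UTX knockout (-1.77, SE 0.28, adjusted p = 0.00132). Against wild type Aldoc in the labelled MLL4 knockdown was called only with the replicate block (-0.62, adjusted p = 0.1298, and with the replicate block adjusted p = 0.00862). The rise of Aldoc ended without UTX knockout library 2 (0.0853) or 3 (0.0667) or wild type library 3 (0.0551), and the fall of Aldoa against wild type ended without labelled MLL4 knockdown library 1 (0.137), 2 (0.0798) or 3 (0.0677) or wild type library 1 (0.0538) or 2 (0.0862). Tpi1, the triose isomerase gene, and Gapdh, which encodes the dehydrogenase that follows, changed in no comparison. Tpi1 had 682, 871 and 905 CPM in the UTX knockout, 524, 660.4 and 679 CPM in the labelled MLL4 knockdown, against 701, 786 and 628 CPM in wild type. Gapdh had 2029, 2567 and 2553 CPM in the UTX knockout, 1912, 2018 and 1953 CPM in the labelled MLL4 knockdown, against 1868, 2416 and 1846 CPM in wild type. Both ran lower in all labelled MLL4 knockdown libraries than in all UTX knockout libraries, with log2 fold changes of -0.40 (adjusted p = 0.0604, and with the replicate block adjusted p = 0.02696) for Tpi1 and -0.28 (adjusted p = 0.1402) for Gapdh, and overlapped with wild type in either group.

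The later steps of the pathway held the enzyme gene with the largest fall, Eno2. Pgk1 encodes phosphoglycerate kinase and lies on the X chromosome. Pgk1 had 588, 965 and 648 CPM in the UTX knockout, 298, 384 and 279 CPM in the labelled MLL4 knockdown, against 686, 659 and 390.2 CPM in wild type. In every library the labelled MLL4 knockdown lay below both other groups, although wild type replicate 3 came close to it. Pgk1 fell against wild type (log2 fold change of -0.85 with SE 0.24, adjusted p = 0.0214) and against the UTX knockout (-1.20, SE 0.24, adjusted p = 0.00395), and the first of these calls ended without labelled MLL4 knockdown library 1 (0.0705) or 3 (0.0872) or wild type library 1 (0.0561) or 2 (0.0636). Pgam1 encodes phosphoglycerate mutase. Pgam1 had 236, 325 and 306 CPM in the UTX knockout, 219, 238 and 215 CPM in the labelled MLL4 knockdown, against 261, 267 and 245 CPM in wild type. Levels in the labelled MLL4 knockdown lay wholly below wild type and overlapped with UTX knockout replicate 1, and the test called only the difference from the UTX knockout (-0.37, SE 0.13, adjusted p = 0.0478). That call ended without labelled MLL4 knockdown library 1 (0.135), 2 (0.0853) or 3 (0.151), UTX knockout library 2 (0.194) or 3 (0.1399) or wild type library 3 (0.0538). Eno1 and Eno2 encode the ubiquitous and the neuronal enolase. Eno1 had 1905, 2489 and 2478 CPM in the UTX knockout, 1443, 1660 and 1567 CPM in the labelled MLL4 knockdown, against 2003, 2476 and 1684 CPM in wild type. Eno2 had 13.9, 29.7 and 25.03 CPM in the UTX knockout, 3.44, 6.56 and 5.98 CPM in the labelled MLL4 knockdown, against 14.3, 17.3 and 15.6 CPM in wild type. In both genes every labelled MLL4 knockdown library lay below every other library. Eno2 fell against wild type (log2 fold change of -1.56 with SE 0.28, adjusted p = 0.00276) and against the UTX knockout (-2.10, SE 0.28, adjusted p = 0.000551), and both calls held when any single library was left out. Within same-numbered pairs, Eno2 in the labelled MLL4 knockdown stood at 24.02%, 38.02% and 38.3% of its wild type level. Eno1 fell against the UTX knockout (-0.56, SE 0.16, adjusted p = 0.0207), a call that ended without labelled MLL4 knockdown library 1 (0.0789) or 3 (0.0634) or UTX knockout library 2 (0.0829) or 3 (0.0662), and against wild type was called only with the replicate block (-0.40, with the replicate block adjusted p = 0.0405). Eno1 lies on chromosome 4, where the median log2 fold change of 986 tested genes against wild type was -0.21 in the labelled MLL4 knockdown and -0.15 in the UTX knockout, and the part of this shift in its value was not tested. Slc2a1 and Car9 share that chromosome.

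For the enzymes the results turn on, RefSeq windows of 250 bases upstream of the annotated start were read on build GRCm38.p6, which is not the mm9 build listed by the submitters. They are shown because Eno2 and Pgk1 were the glycolytic enzyme genes with the largest falls against wild type, and Aldoc and Gpi1 those that rose in the UTX knockout. Capitals mark the core letters of the hypoxia response element, ACGTG or GCGTG, read on either strand, so that CACGT and CACGC count as well. The windows are chr6:124769674-124769923 (minus strand), chrX:106186850-106187099 (plus), chr11:78322823-78323072 (plus) and chr7:34230337-34230586 (minus), each written 5′ to 3′ on the strand of its gene.
Eno2: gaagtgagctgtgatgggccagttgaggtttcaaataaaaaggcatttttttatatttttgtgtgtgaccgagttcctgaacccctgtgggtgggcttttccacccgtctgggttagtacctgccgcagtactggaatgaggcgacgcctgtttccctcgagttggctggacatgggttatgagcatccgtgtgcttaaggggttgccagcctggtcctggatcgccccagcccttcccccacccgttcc
Pgk1: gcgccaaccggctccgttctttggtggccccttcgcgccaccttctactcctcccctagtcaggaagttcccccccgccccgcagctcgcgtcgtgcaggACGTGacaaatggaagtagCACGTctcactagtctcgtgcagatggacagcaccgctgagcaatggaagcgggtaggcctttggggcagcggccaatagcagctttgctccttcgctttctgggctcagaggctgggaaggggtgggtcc
Aldoc: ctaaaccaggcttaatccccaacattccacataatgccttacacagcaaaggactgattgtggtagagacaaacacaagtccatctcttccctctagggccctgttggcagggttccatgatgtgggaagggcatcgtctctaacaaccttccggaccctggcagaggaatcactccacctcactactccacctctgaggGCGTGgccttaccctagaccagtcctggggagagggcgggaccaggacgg
Gpi1: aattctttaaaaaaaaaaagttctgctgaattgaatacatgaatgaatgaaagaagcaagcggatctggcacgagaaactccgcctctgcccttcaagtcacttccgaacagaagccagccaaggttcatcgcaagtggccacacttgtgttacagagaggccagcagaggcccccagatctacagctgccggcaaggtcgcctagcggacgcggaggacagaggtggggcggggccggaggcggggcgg
The Pgk1 window holds 2 matches and the Aldoc window 1, while those of Eno2 and Gpi1 hold none of these letters.

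Ldha, Slc16a3 and Pdk1 steer pyruvate. Pdk1 encodes a kinase that switches off pyruvate dehydrogenase and so keeps pyruvate out of mitochondria. Pdk1 had 285, 339 and 316 CPM in the UTX knockout, 238, 289 and 285 CPM in the labelled MLL4 knockdown, against 379, 344 and 351 CPM in wild type. Wild type stood above every other library. Pdk1 fell in the labelled MLL4 knockdown (log2 fold change of -0.40 with SE 0.11, adjusted p = 0.0231), a call that ended without labelled MLL4 knockdown library 1 (0.102), 2 (0.0526) or 3 (0.0549) or wild type library 1 (0.0672), and in the UTX knockout it stood at -0.19 (adjusted p = 0.278). Ldha encodes lactate dehydrogenase A. Ldha had 1473, 2095 and 1887 CPM in the UTX knockout, 1230, 1463 and 1338 CPM in the labelled MLL4 knockdown, against 1892, 1991 and 1418 CPM in wild type. Its labelled MLL4 knockdown libraries lay wholly below the UTX knockout and overlapped with wild type replicate 3. Slc16a3 encodes the lactate exporter MCT4. Slc16a3 had 97.5, 122 and 171 CPM in the UTX knockout, 72.6, 126 and 114 CPM in the labelled MLL4 knockdown, against 146, 144 and 136 CPM in wild type. Its labelled MLL4 knockdown libraries all lay below wild type, and the UTX knockout libraries fell on both sides. Neither gene passed the test, with Ldha at -0.40, SE 0.16, adjusted p = 0.0907 and Slc16a3 at -0.44, SE 0.22, adjusted p = 0.158 in the labelled MLL4 knockdown against wild type. Both did with the replicate block (adjusted p = 0.04897 for Ldha and 0.0492 for Slc16a3), as did Ldha against the UTX knockout (-0.44, with the replicate block adjusted p = 0.0322). Pfkfb3 and Pfkfb4 encode bifunctional enzymes that make and remove fructose 2,6-bisphosphate, the allosteric activator of phosphofructokinase. Pfkfb4 had 4.71, 5.41 and 3.95 CPM in the UTX knockout, 3.39, 2.85 and 3.41 CPM in the labelled MLL4 knockdown, against 3.999, 3.75 and 3.94 CPM in wild type. At these low levels every library of the labelled MLL4 knockdown lay below the other groups, and no comparison passed the test (-0.54, SE 0.20, adjusted p = 0.0571 against the UTX knockout). Pfkfb3 ranged from 27.0 to 62.7 CPM with overlapping groups.

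**Figure D3:**
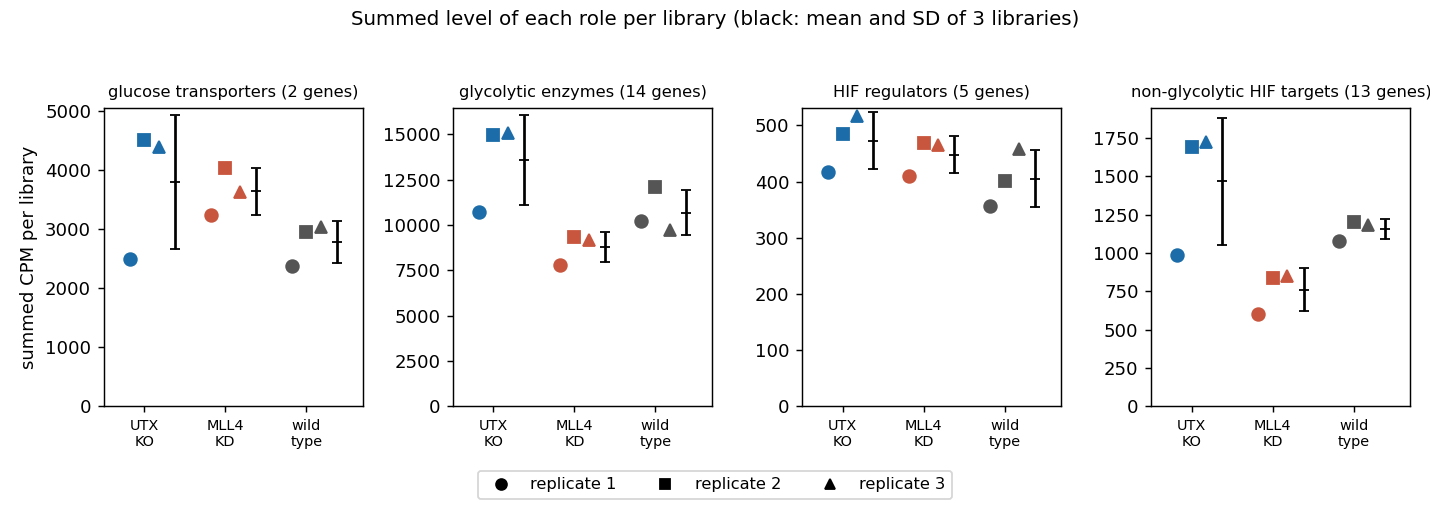
Summed CPM of the genes of a role in each library, for 2 glucose transporters, 14 glycolytic enzymes, 5 HIF regulators and 13 targets outside glycolysis, with the mean and SD of the 3 libraries of a group in black. The labelled MLL4 knockdown libraries sit below all wild type libraries for the enzymes and the targets but not for the transporters or regulators, and UTX knockout replicate 1 sits below replicates 2 and 3 in each panel.

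Summed over the 14 enzyme genes, levels were 10730, 14970 and 15060 CPM in the UTX knockout, 7807, 9330 and 9185 CPM in the labelled MLL4 knockdown, against 10190, 12100 and 9740 CPM in wild type. The labelled MLL4 knockdown lay wholly below both other groups, and UTX knockout replicate 1 lay within the wild type range. The 13 targets outside glycolysis summed to 985, 1692 and 1723 CPM in the UTX knockout, 601, 834 and 849 CPM in the labelled MLL4 knockdown, against 1079, 1202 and 1180 CPM in wild type. Here too the labelled MLL4 knockdown stood apart, while UTX knockout replicate 1 lay below wild type and replicates 2 and 3 above it. The 2 transporters summed to 3252, 4038 and 3641 CPM in the labelled MLL4 knockdown, against 2384, 2956 and 3038 CPM in wild type, so that every labelled MLL4 knockdown library lay above wild type. Slc2a3 carried this difference, with Slc2a1 at a log2 fold change of 0.06, and neither gene passed the test.

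Among the HIF regulators, both alpha subunit genes rose in the labelled MLL4 knockdown against wild type. Hif1a encodes HIF-1 alpha. Hif1a had 98.4, 94.4 and 94.3 CPM in the UTX knockout, 186, 159 and 162 CPM in the labelled MLL4 knockdown, against 124, 96.95 and 119 CPM in wild type. All labelled MLL4 knockdown libraries lay above all others, and UTX knockout and wild type overlapped. Hif1a rose in the labelled MLL4 knockdown against wild type (log2 fold change of 0.58 with SE 0.12, adjusted p = 0.00482) and against the UTX knockout (0.82, SE 0.12, adjusted p = 0.000695), and both calls held when any single library was left out. In the UTX knockout it stood at -0.25 against wild type (adjusted p = 0.179), and it was called lower there without wild type replicate 2 (-0.35, adjusted p = 0.0400), with the length trend removed (-0.30, adjusted p = 0.0294) and with the replicate block as well (-0.30, adjusted p = 0.0120). Epas1 encodes HIF-2 alpha, the isoform best known from endothelium and kidney. Epas1 had 128, 121 and 142 CPM in the UTX knockout, 113, 129 and 124 CPM in the labelled MLL4 knockdown, against 62.5, 69.6 and 107 CPM in wild type. Both perturbed groups lay wholly above wild type, whose replicate 3 came close to them. Epas1 rose in the UTX knockout (log2 fold change of 0.71 with SE 0.18, adjusted p = 0.0216) and in the labelled MLL4 knockdown (0.61, SE 0.18, adjusted p = 0.0261), and the perturbed groups differed by -0.10 (95% interval -0.48 to 0.29). The call in the UTX knockout ended without UTX knockout library 2 (0.0557) or 3 (0.0774) or wild type library 2 (0.0601), and that in the labelled MLL4 knockdown without labelled MLL4 knockdown library 2 (0.0893) or 3 (0.0742) or wild type library 1 (0.0598) or 2 (0.0726). In the same order, both calls also ended with only the 2 groups compared (0.0592 and 0.0519). They ended too in lane 2 alone (0.189 and 0.231) and in replicates 2 and 3 alone (0.0742 and 0.0927).

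Egln1 and Egln3 encode the oxygen-sensing prolyl hydroxylases PHD2 and PHD3, and both genes are themselves known HIF targets. Egln1 had 41.1, 82.2 and 90.3 CPM in the UTX knockout, 39.1, 54.7 and 60.0 CPM in the labelled MLL4 knockdown, against 73.1, 96.3 and 91.3 CPM in wild type. Wild type lay wholly above the labelled MLL4 knockdown, and UTX knockout replicate 1 was as low as the labelled MLL4 knockdown. Egln1 fell in the labelled MLL4 knockdown against wild type (log2 fold change of -0.76 with SE 0.26, adjusted p = 0.0491), close to the threshold. That call ended without labelled MLL4 knockdown library 1 (0.162), 2 (0.107) or 3 (0.0698), UTX knockout library 2 (0.0591) or wild type library 2 (0.117) or 3 (0.103), and it ended with DESeq2 size factors (0.0503). Egln1 lies on chromosome 8, where 778 tested genes had a median log2 fold change of -0.42 in the labelled MLL4 knockdown and -0.44 in the UTX knockout against wild type, so that Egln1 lay -0.35 from the chromosome's median in the labelled MLL4 knockdown and 0.16 above it in the UTX knockout. The part of this shift in the call was not tested. Between the perturbed groups Egln1 was called only with the replicate block (-0.47, with the replicate block adjusted p = 0.0357). Egln3 had 123, 143 and 153 CPM in the UTX knockout, 46.8, 98.02 and 97.02 CPM in the labelled MLL4 knockdown, against 67.4, 104 and 109 CPM in wild type. The UTX knockout lay wholly above both other groups, which overlapped. Egln3 was lower in the labelled MLL4 knockdown than in the UTX knockout (-0.79, SE 0.26, adjusted p = 0.0402), and against wild type the UTX knockout was called only with the replicate block (0.58, with the replicate block adjusted p = 0.0119). Vhl encodes the substrate receptor of the ligase that destroys the alpha subunits. Vhl had 27.1, 44.4 and 36.2 CPM in the UTX knockout, 24.4, 28.1 and 22.3 CPM in the labelled MLL4 knockdown, against 29.2, 34.8 and 31.6 CPM in wild type. The labelled MLL4 knockdown lay wholly below wild type and overlapped with UTX knockout replicate 1. The test called only its difference from the UTX knockout (-0.53, SE 0.17, adjusted p = 0.0414). The call of Egln3 ended without labelled MLL4 knockdown library 1 (0.09402) or UTX knockout library 1 (0.0524), 2 (0.104) or 3 (0.112), and that of Vhl without labelled MLL4 knockdown library 1 (0.112), 2 (0.05899) or 3 (0.147), UTX knockout library 2 (0.193) or 3 (0.0933) or wild type library 3 (0.0531).

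Of the 13 targets outside glycolysis, the 5 that fell in the labelled MLL4 knockdown against wild type cover a stress-responsive growth regulator, a nuclear ankyrin protein, mitophagy, a vasodilator and an inhibitor of growth signalling. Ndrg1 encodes a stress-responsive protein that is among the most strongly hypoxia-induced in many cell types. Ndrg1 had 52.9, 129.9 and 129 CPM in the UTX knockout, 9.63, 20.7 and 24.6 CPM in the labelled MLL4 knockdown, against 48.3, 89.8 and 89.1 CPM in wild type. Every labelled MLL4 knockdown library lay below every other library, and replicate 1 was the lowest of each group. Ndrg1 fell against wild type (log2 fold change of -2.05 with SE 0.39, adjusted p = 0.00369) and against the UTX knockout (-2.50, SE 0.39, adjusted p = 0.00132). Adm encodes adrenomedullin, a vasodilator peptide. Adm had 8.74, 19.5 and 21.2 CPM in the UTX knockout, 0.699, 2.49 and 3.23 CPM in the labelled MLL4 knockdown, against 6.596, 11.04 and 8.96 CPM in wild type. The groups stood in the order labelled MLL4 knockdown, wild type, UTX knockout, with only UTX knockout replicate 1 and wild type overlapping. Adm fell against wild type (log2 fold change of -2.03 with SE 0.45, adjusted p = 0.00764) and against the UTX knockout (-2.92, SE 0.45, adjusted p = 0.001101), and in the labelled MLL4 knockdown it rested on 13 to 73 counts per library. Ddit4 encodes REDD1, an inhibitor of the growth kinase mTORC1. Ddit4 had 120, 188 and 247 CPM in the UTX knockout, 23.5, 66.9 and 55.1 CPM in the labelled MLL4 knockdown, against 184, 196 and 192 CPM in wild type. Wild type was tight, the UTX knockout spread around it, and the labelled MLL4 knockdown lay wholly below both. Ddit4 fell against wild type (log2 fold change of -1.97 with SE 0.32, adjusted p = 0.00166) and against the UTX knockout (-1.93, SE 0.32, adjusted p = 0.00189). The 6 calls of Ndrg1, Adm and Ddit4 held when any single library was left out. In lane 2 alone, with 2 libraries per group, the calls against wild type ended for Ndrg1 (adjusted p = 0.0674) and Adm (adjusted p = 0.106).

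In same-numbered pairs, the level in the labelled MLL4 knockdown was 19.9%, 23.03% and 27.6% of wild type for Ndrg1, 10.6%, 22.6% and 36.1% for Adm and 12.8%, 34.1% and 28.7% for Ddit4. The first pair showed the largest fall of each of these genes, and replicate 1 had the lowest level of each in all 3 groups. Its wild type library also had the lowest sum of feeder or fibroblast markers (46.5 CPM, against 229.7 and 167.5 in the others). The part of such cells in these falls was not tested.

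Ankrd37 encodes a small nuclear protein with ankyrin repeats. Ankrd37 had 11.1, 19.7 and 19.3 CPM in the UTX knockout, 3.71, 7.195 and 8.86 CPM in the labelled MLL4 knockdown, against 11.7, 24.6 and 18.0 CPM in wild type. Every labelled MLL4 knockdown library lay below the other groups, which overlapped. Ankrd37 fell against wild type (log2 fold change of -1.45 with SE 0.34, adjusted p = 0.0104), a call that held when any single library was left out, and against the UTX knockout (-1.33, SE 0.34, adjusted p = 0.0147), a call that ended without UTX knockout library 2 (0.0593). In lane 2 alone both calls ended (adjusted p = 0.126 and 0.109). The gene lies on chromosome 8 like Egln1, and in the labelled MLL4 knockdown against wild type it lay -1.04 from the chromosome's median. Bnip3 and Bnip3l encode receptors that tag mitochondria for autophagy. Bnip3 had 179.7, 327 and 314 CPM in the UTX knockout, 76.9, 129 and 128 CPM in the labelled MLL4 knockdown, against 214, 195 and 178 CPM in wild type. Both other groups lay wholly above it. Bnip3 fell against wild type (log2 fold change of -0.81 with SE 0.24, adjusted p = 0.0266) and against the UTX knockout (-1.30, SE 0.24, adjusted p = 0.00262), and the first of these calls ended without labelled MLL4 knockdown library 1 (0.0887) or wild type library 1 (0.0556) or 2 (0.0532). Its relative Bnip3l ranged from 123 to 177 CPM with overlapping groups, at 0.05 in the labelled MLL4 knockdown (95% interval -0.28 to 0.37) and 0.20 in the UTX knockout (95% interval -0.12 to 0.52) against wild type.

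The upstream windows of the 3 targets with the largest falls that the RefSeq table holds are shown for comparison with those of the enzymes, with the same letters in capitals. They lie at chr7:110627407-110627656 (plus strand), chr10:59951771-59952020 (minus) and chr8:45999851-46000100 (minus).
Adm: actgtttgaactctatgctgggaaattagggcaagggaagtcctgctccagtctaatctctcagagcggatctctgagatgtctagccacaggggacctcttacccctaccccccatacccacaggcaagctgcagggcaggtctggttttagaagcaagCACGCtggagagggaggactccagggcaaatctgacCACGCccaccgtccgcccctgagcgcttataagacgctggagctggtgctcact
Ddit4: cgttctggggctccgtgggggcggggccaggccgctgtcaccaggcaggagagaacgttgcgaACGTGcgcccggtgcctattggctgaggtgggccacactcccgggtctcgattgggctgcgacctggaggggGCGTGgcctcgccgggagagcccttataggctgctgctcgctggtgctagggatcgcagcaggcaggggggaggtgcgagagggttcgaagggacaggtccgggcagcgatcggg
Ankrd37: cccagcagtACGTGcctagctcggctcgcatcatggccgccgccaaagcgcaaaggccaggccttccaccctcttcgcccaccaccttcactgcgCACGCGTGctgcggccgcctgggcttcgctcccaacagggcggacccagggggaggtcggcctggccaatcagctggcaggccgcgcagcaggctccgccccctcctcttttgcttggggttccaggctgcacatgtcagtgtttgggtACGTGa
These windows hold 2, 2 and 4 matches, of which a pair in Ankrd37 overlaps. Of the 39 genes 35 had a window, and Ndrg1, Slc2a3, Bnip3l and Epas1 had none. At least 1 window of the gene held the core letters in 11 of 11 targets outside glycolysis, 17 of 20 glycolytic genes and 3 of 4 regulators. Over the 10017 tested genes with a window the share was 61.2%, and over all 27025 genes with a window it was 41.5%. Counted by window instead, the letters occurred in 76.9% of the 52 windows of the 35 genes and in 38.6% of all 32851 windows. The latter include windows of untested genes, and no share by window was taken over tested genes alone. The E-box CACGTG, which contains the core letters on both strands, occurred in 5 of the 35 genes (14.3%), against 10.04% of tested genes with a window. Such short words occur often, so a match describes the letters and not a bound site.

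P4ha1 and P4ha2 encode the alpha subunits of collagen prolyl 4-hydroxylase, which stabilises collagen. P4ha1 had 103, 250.3 and 246 CPM in the UTX knockout, 45.8, 73.8 and 75.9 CPM in the labelled MLL4 knockdown, against 98.2, 128 and 119.5 CPM in wild type. P4ha2 had 23.3, 65.8 and 56.7 CPM in the UTX knockout, 17.3, 22.2 and 25.02 CPM in the labelled MLL4 knockdown, against 33.2, 44.4 and 38.6 CPM in wild type. The labelled MLL4 knockdown lay wholly below wild type for both, and below the UTX knockout too, save that P4ha2 overlapped with UTX knockout replicate 1. Against the UTX knockout P4ha1 fell by 1.62 (SE 0.30, adjusted p = 0.00283) and P4ha2 by 1.18 (SE 0.30, adjusted p = 0.0152) on the log2 scale, and the call of P4ha2 ended without labelled MLL4 knockdown library 1 (0.0626) or UTX knockout library 2 (0.07302) or 3 (0.0526). Against wild type neither passed, at -0.82, SE 0.30, adjusted p = 0.0614 for P4ha1 and -0.85, SE 0.30, adjusted p = 0.0611 for P4ha2, and both did with the replicate block (adjusted p = 0.00229 and 0.00749). With that block P4ha1 was also called higher in the UTX knockout against wild type (0.79, with the replicate block adjusted p = 0.0112), as were Ndrg1 (0.46, with the replicate block adjusted p = 0.0323) and Adm (0.89, with the replicate block adjusted p = 0.0201). Vegfa, the vascular growth factor gene, ranged from 40.5 to 133 CPM over all libraries with overlapping groups. It stood at 0.80, SE 0.28, adjusted p = 0.0755 in the UTX knockout against wild type, where the replicate block called it (adjusted p = 0.000442), and at -0.75, SE 0.28, adjusted p = 0.0667 in the labelled MLL4 knockdown against the UTX knockout, also called with the block (adjusted p = 0.000379).

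Higd1a encodes a mitochondrial protein of the respiratory chain's surroundings. Higd1a had 38.3, 69.4 and 64.5 CPM in the UTX knockout, 35.2, 38.2 and 37.1 CPM in the labelled MLL4 knockdown, against 49.7, 61.5 and 41.2 CPM in wild type. Each labelled MLL4 knockdown library lay below both other groups, the UTX knockout by a narrow margin. Higd1a fell against the UTX knockout (-0.64, SE 0.21, adjusted p = 0.0394), a call that ended without labelled MLL4 knockdown library 1 (0.113), 2 (0.0927) or 3 (0.0998) or UTX knockout library 2 (0.165) or 3 (0.1202), and stood at -0.46 against wild type (adjusted p = 0.123). Car9 encodes carbonic anhydrase IX, a surface enzyme of pH control and a textbook HIF target in tumour cells. Car9 had 1.87, 2.16 and 1.11 CPM in the UTX knockout, 0.968, 1.18 and 1.37 CPM in the labelled MLL4 knockdown, against 2.03, 1.96 and 1.84 CPM in wild type. All labelled MLL4 knockdown libraries lay below wild type at these low levels, without passing the test (-0.72, SE 0.30, adjusted p = 0.0968), and the median of its chromosome 4 was -0.21 in the same comparison. Mxi1 encodes an antagonist of MYC. Mxi1 had 51.1, 41.6 and 51.1 CPM in the UTX knockout, 37.3, 42.95 and 47.2 CPM in the labelled MLL4 knockdown, against 38.9, 36.99 and 40.9 CPM in wild type. The UTX knockout lay wholly above wild type by a small margin, with the labelled MLL4 knockdown overlapping both, and no comparison passed (0.30, SE 0.13, adjusted p = 0.134 in the UTX knockout against wild type). Kdm3a, an H3K9 demethylase gene, ranged from 178 to 279 CPM with overlapping groups and changed in no comparison.

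**Figure D4:**
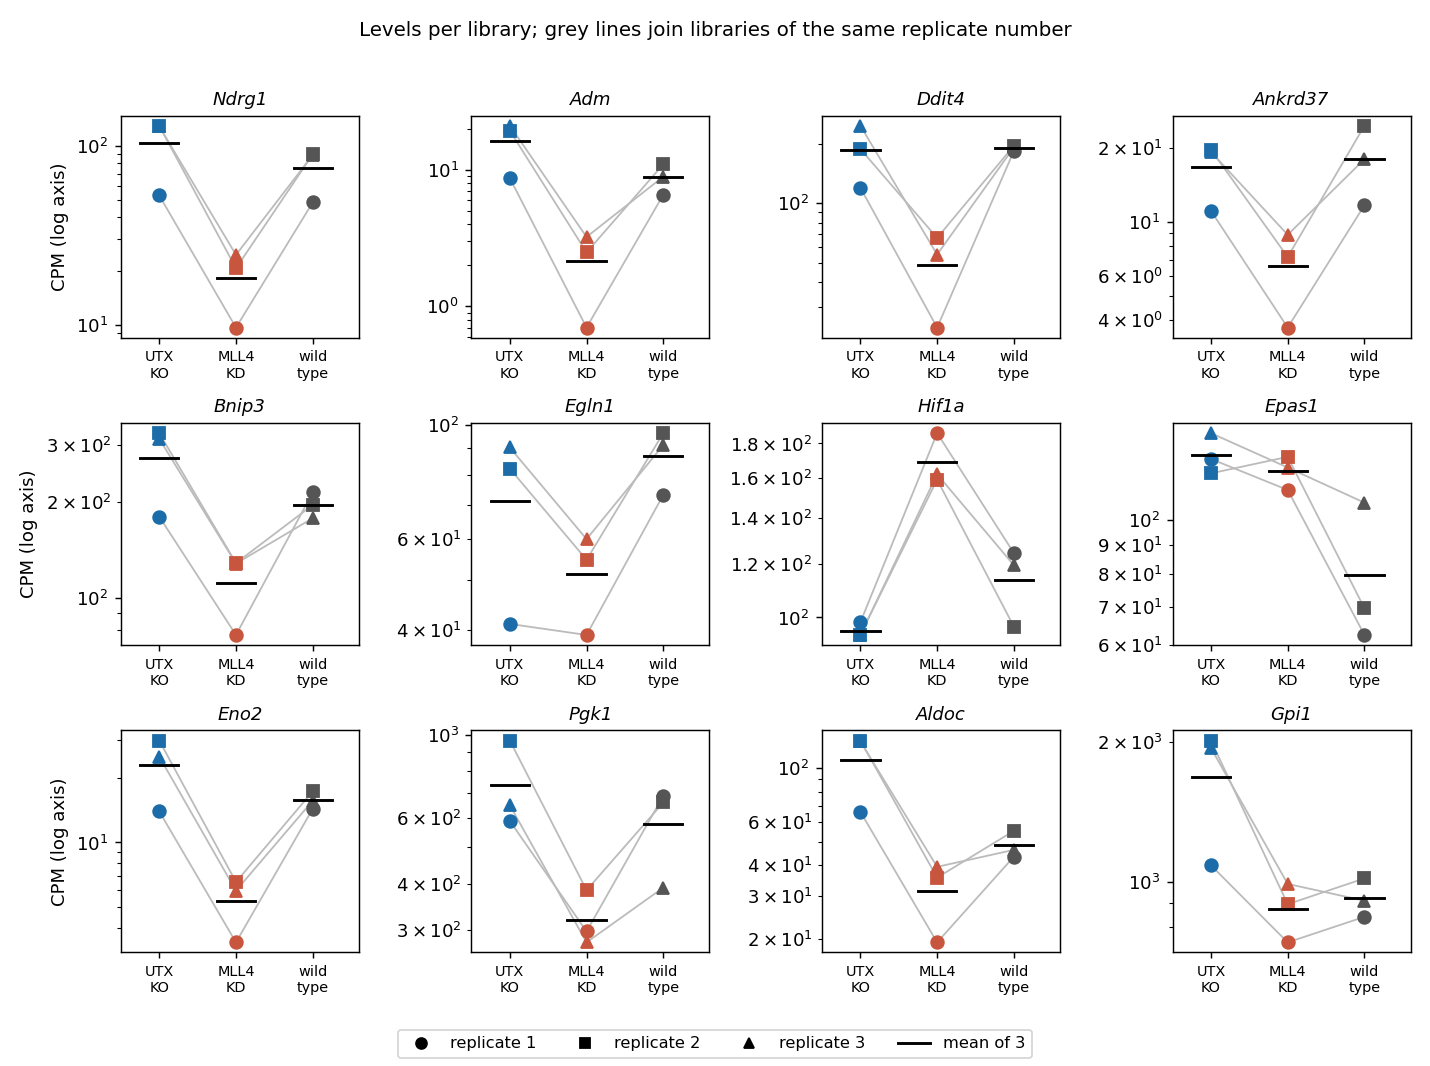
CPM of 12 genes in each library on a log axis, with symbols for replicate numbers, a black line for the mean of 3 libraries and grey lines joining libraries of the same number; MLL4 KD marks the libraries labelled MLL4 knockdown. Within each number the labelled MLL4 knockdown lies below both other groups for Ndrg1, Adm, Ddit4, Ankrd37, Bnip3, Egln1, Eno2, Pgk1 and Aldoc and above both for Hif1a.

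Replicate 1 had the lowest level of its group in all 3 groups for 18 of the 39 genes, 9 glycolytic and 9 of the HIF system, and for 15 more it was the lowest in 2 groups. Over all tested genes, replicate 1 was the lowest in all 3 groups for 11.2%. The share for 2 groups was not taken over all tested genes, so the count of 15 is not read as a result about the 39 genes. In the UTX knockout, for example, Ndrg1 stood at 52.9 CPM in replicate 1, against 129.9 and 128.7 CPM in replicates 2 and 3, and P4ha1 at 103 CPM, against 250.3 and 246.

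Other genes of the same pathways were read from lists of enzymes, regulators and targets that are not among the 39. These lists were chosen with earlier results of these data known, so their shares are not independent of those results. Of 39 tested targets of HIF outside the 39 genes, 18 fell and 1 rose in the labelled MLL4 knockdown against wild type, with a median log2 fold change of -0.62, against 15.8% of all tested genes called lower and 10.8% called higher. Against the UTX knockout 18 fell and 2 rose, with a median of -0.76, where 16.0% of all tested genes were lower and 13.0% higher. Against wild type, 4 of these targets fell in the UTX knockout and 2 rose, shares near the 8.92% and 6.55% of all tested genes, with a median of 0.20. With the replicate block, 8 of these targets (20.5%) were called higher in that comparison and 6 (15.4%) lower. The background under the block was 10.5% higher and 12.8% lower. With it the share called higher thus lay above the background, not near it. The medians over all tested genes were between -0.02 and -0.01 in the 3 comparisons. Tfrc, the transferrin receptor gene that brings iron into the cell, averaged 290.1 ± 67.4 CPM in the labelled MLL4 knockdown and 890.2 ± 148 CPM in wild type (SD, n = 3 each; log2 fold change of -1.62 with SE 0.19, adjusted p = 0.000217). Hmox1, which encodes heme oxygenase 1, averaged 80.2 ± 6.58 CPM in the labelled MLL4 knockdown and 164 ± 28.9 CPM in wild type (-1.03, SE 0.18, adjusted p = 0.0021), and Selenbp1, a selenium-binding protein gene, 1.88 ± 0.372 CPM in the labelled MLL4 knockdown and 5.44 ± 0.655 CPM in wild type (-1.52, SE 0.21, adjusted p = 0.000477). Ak4, a mitochondrial adenylate kinase gene, fell in the UTX knockout (-0.57, SE 0.15, adjusted p = 0.0234) and in the labelled MLL4 knockdown (-0.94, SE 0.15, adjusted p = 0.00103), with 108 ± 15.95 CPM in the UTX knockout, 83.9 ± 3.55 CPM in the labelled MLL4 knockdown and 161 ± 27.6 CPM in wild type. The call of Ak4 in the UTX knockout ended without UTX knockout library 1 (0.06497) or 3 (0.0889) or wild type library 2 (0.0576) or 3 (0.0645). Edn1, which encodes endothelin 1, had 0.0982, 0 and 0.0464 CPM in the UTX knockout, against 1.25, 3.07 and 2.91 CPM in wild type, and fell there (adjusted p = 0.00226), with no fold given against 3 counts in all.

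Of 23 other tested genes of glycolysis and pyruvate metabolism, the UTX knockout had 5 higher and 1 lower (median log2 fold change 0.15), and the labelled MLL4 knockdown 2 higher and 2 lower (median -0.05), each against wild type. The 2 and 2 calls are shares of 8.70%, below the 10.8% of all tested genes called higher and the 15.8% called lower in the labelled MLL4 knockdown. In the UTX knockout 21.7% of the list was called higher and 4.35% lower, against 6.55% and 8.92% of all tested genes. Pdk4, a pyruvate dehydrogenase kinase gene like Pdk1, averaged 25.7 ± 0.496 CPM in the UTX knockout, 24.3 ± 2.62 CPM in the labelled MLL4 knockdown and 13.1 ± 1.403 CPM in wild type, and rose in the UTX knockout (0.97, SE 0.13, adjusted p = 0.00146) and in the labelled MLL4 knockdown (0.89, SE 0.13, adjusted p = 0.000809). Pdk2, a further kinase of that family, rose in the UTX knockout (1.02, SE 0.17, adjusted p = 0.00405), while Eno3, the muscle enolase gene, fell in the UTX knockout (-1.13, SE 0.21, adjusted p = 0.00578) and in the labelled MLL4 knockdown (-1.01, SE 0.21, adjusted p = 0.00504). Pgam2, the muscle phosphoglycerate mutase gene, fell in the labelled MLL4 knockdown (-1.17, SE 0.24, adjusted p = 0.00468), and Dlat, a subunit of pyruvate dehydrogenase, rose there (0.35, SE 0.09, adjusted p = 0.0173). Ldhb, which encodes the heart form of lactate dehydrogenase, rose in the UTX knockout (0.78, SE 0.22, adjusted p = 0.0337). The call of Ldhb ended without labelled MLL4 knockdown library 2 (0.0533), UTX knockout library 2 (0.139) or 3 (0.101) or wild type library 2 (0.05596) or 3 (0.0983), and that of Dlat without labelled MLL4 knockdown library 1 (0.0576), 2 (0.06296) or 3 (0.05899).

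Among 14 other regulators of the HIF pathway, Cited2, whose protein competes with HIF for p300, averaged 15.2 ± 2.51 CPM in the UTX knockout, 57.9 ± 8.42 CPM in the labelled MLL4 knockdown and 28.7 ± 11.7 CPM in wild type. It fell in the UTX knockout (-0.92, SE 0.27, adjusted p = 0.0437), rose in the labelled MLL4 knockdown against wild type (1.01, SE 0.27, adjusted p = 0.0175) and was higher there than in the UTX knockout (1.93, SE 0.27, adjusted p = 0.000695). The fall ended without labelled MLL4 knockdown library 1 (0.0535), 2 (0.0678) or 3 (0.0641), UTX knockout library 1 (0.0882), 2 (0.164) or 3 (0.0774) or wild type library 2 (0.113) or 3 (0.1398), and the rise against wild type without labelled MLL4 knockdown library 2 (0.0585) or 3 (0.0635). Hif3a, another alpha subunit gene whose product can dampen HIF, rose in the UTX knockout (0.86, SE 0.25, adjusted p = 0.0412), a call that ended without labelled MLL4 knockdown library 2 (0.0624) or 3 (0.0562), UTX knockout library 2 (0.128) or 3 (0.143) or wild type library 2 (0.101). Ube2s, a ubiquitin-conjugating enzyme gene, fell in the labelled MLL4 knockdown (-0.46, SE 0.12, adjusted p = 0.0152), a call that ended without labelled MLL4 knockdown library 2 (0.0769) or 3 (0.0718). Each group had 1 gene higher and 1 lower in this list against wild type, 7.14% each way, near the background in the UTX knockout and below it in the labelled MLL4 knockdown. The medians of this list were -0.11 in the UTX knockout and -0.01 in the labelled MLL4 knockdown.

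Of 10 genes of the pentose phosphate pathway, which branches from glycolysis, 2 rose in the UTX knockout, 1 fell and 0 changed in the labelled MLL4 knockdown against wild type by edgeR's test (0 at an unadjusted p under 0.05, 0 with DESeq2). The UTX knockout shares were 20% higher and 10% lower, against 6.55% and 8.92% of all tested genes. In the labelled MLL4 knockdown 10.8% of all tested genes were called higher and 15.8% lower. The rises were Rpe (0.50, SE 0.13, adjusted p = 0.0221) and H6pd (0.48, SE 0.14, adjusted p = 0.0379) and the fall was Pgls (-0.58, SE 0.16, adjusted p = 0.0304), which encode an epimerase, a hexose-6-phosphate dehydrogenase and a lactonase. Their calls ended without UTX knockout library 2 (0.108) or 3 (0.0607) for Rpe, without labelled MLL4 knockdown library 3 (0.0604), UTX knockout library 2 (0.129) or 3 (0.107) or wild type library 1 (0.0705) or 2 (0.0761) for H6pd and without labelled MLL4 knockdown library 2 (0.0526), UTX knockout library 1 (0.0542) or 2 (0.121) or wild type library 2 (0.0663) or 3 (0.0683) for Pgls. Of 5 tested genes of gluconeogenesis 2 fell in the labelled MLL4 knockdown and 0 changed in the UTX knockout (0 at an unadjusted p under 0.05, 0 with DESeq2). The falls are 40% of this short list, against 15.8% of all tested genes. Pcx, which encodes pyruvate carboxylase, fell (-0.45, SE 0.12, adjusted p = 0.0173), a call that ended without labelled MLL4 knockdown library 1 (0.0742) or 3 (0.0608). Fbp1, the fructose-bisphosphatase gene, had 0.215, 0.0453 and 0.0443 CPM in the labelled MLL4 knockdown, against 0.2597, 0.682 and 0.582 CPM in wild type (adjusted p = 0.0179), and its call ended without labelled MLL4 knockdown library 2 (0.0836) or 3 (0.0826) or wild type library 2 (0.0563). At these low levels that call rests on few counts.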

How the data were processed

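The 9 RNA libraries were made with a TruSeq kit, per the labels' protocols. The authors deposited raw read counts per gene symbol, a column for each library, and column names were matched to library titles. STAR 2.4, HTSeq 0.6.1, mm9 and hg19 are listed, their roles unstated, per the submitters' processing notes. Annotation, strand setting and handling of reads shared between copies were not stated there. Glycolytic genes with processed pseudogenes, such as Gapdh, Pgk1, Pgam1, Ldha and Aldoa, are therefore uncertain to the extent that shared reads were dropped or split, and reads of overlapping antisense genes cannot be told apart.

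Of 33924 genes, 24396 had any count and 14772 were kept by filterByExpr of edgeR. Tests used edgeR 4.0.16 in R 4.3.3, with the quasi-likelihood test on all 9 libraries, TMM scaling and a term for group only, two-sided, adjusted by Benjamini-Hochberg over all tested genes within each comparison. Standard errors come from the fitted contrasts and intervals cover 95%. With 3 libraries against 3 the smallest exact permutation p is 0.1, and such tests were not used. The members and the gene lists were chosen with earlier results of these data known. Genes with a call or without overlap between groups are given in every library and the others by range, and from other lists called genes are named, at most 6 per list by smallest p. A gene that this rule names is not reported here. Levels per kilobase use transcript lengths of GENCODE on GRCm38, which 98.07% of tested genes matched, and chromosomes come from the same annotation. Promoter windows are from RefSeq on GRCm38.p6.

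Deviations from group means correlated across genes between libraries of the same number. The correlations were 0.415, 0.168 and 0.381 between UTX knockout and wild type, 0.416, 0.182 and 0.238 between labelled MLL4 knockdown and wild type, and 0.467, 0.181 and 0.308 between the perturbed groups. The highest correlation between libraries of different numbers was 0.158, 0.154 and 0.226 in the same order of comparisons, the last above the 0.181 of replicate 2. On these correlations the numbers were taken to pair libraries, although the labels state no pairing. Replicate 2 was also the only lane 1 library of each group, so for it number and lane cannot be told apart. A fit with the replicate number as a block is given where it changes a call. Alternatives were that block, DESeq2 1.42.0, other scaling and filters, only the groups compared, lane 2 alone, each library left out, and, added after seeing the data, replicates 2 and 3 alone and removal of the transcript length trend of each library. The code was tested on simulated data.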

Additional observations from a re-analysis of the deposited data

How the results depend on the processing

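Over 117 log2 fold changes of the 39 genes and 19 alternatives, 0 of 2223 values reversed a call, 1984 kept their side of the threshold, 41 of them with a change of sign while uncalled in both, 108 lost the call and 131 gained it. Counts of calls moved more. The first comparison is the UTX knockout and the second the labelled MLL4 knockdown, each with wild type, and the third sets the labelled MLL4 knockdown against the UTX knockout. Over all tested genes, with 2285, 3930 and 4275 calls, the replicate block gave 3446 in the first, and the block with the length trend removed gave 4417 in the first and 6549 in the third. Testing only the 2 groups compared gave 1240 in the first, and lane 2 alone gave 74, 1341 and 1535. Leaving out single libraries gave 833 to 2854, 2273 to 4108 and 2556 to 5281. Glycolytic genes, with 2, 5 and 11 calls, gave 6 and 11 in the first 2 comparisons with the replicate block and 10 and 12 with the length trend removed as well. Those 10 in the UTX knockout hold 9 higher and Pdk1 lower (-0.27, adjusted p = 0.0383 with edgeR). The first glycolytic count was 5 with DESeq2 and 5 without a filter on low counts, the first 2 counts were 7 and 3 in replicates 2 and 3 alone, and lane 2 alone gave 0, 1 and 5. Leaving out single libraries gave 0 to 7, 1 to 7 and 7 to 13. Genes of the HIF system, with 1, 8 and 11 calls, gave in the first comparison 6 with the replicate block, 3 with DESeq2, 3 without the filter, 0 with only the 2 groups compared, 7 in replicates 2 and 3 alone, 2 with the length trend removed and 7 with the block as well, with Hif1a called lower in these last 2 settings and without wild type replicate 2. Lane 2 alone gave 0, 2 and 5, and leaving out single libraries gave 0 to 5, 5 to 11 and 6 to 13. The replicate block changed no call of the 39 genes other than those given beside them, and removed none. The cause of these shifts was not tested. Lane 2 alone and the omissions use fewer samples, and leaving out single libraries gave counts both below and above those of the full fit. Genes at a few CPM, such as Car9 and Pfkfb4, rest on few counts, and small differences in them were not detectable at this depth.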

Other observations

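Shares of paralogs within a pathway step were read from the counts. Hk1 took 17.4%, 19.7% and 24.1% of the summed counts of Hk1 and Hk2 in UTX knockout replicates 1, 2 and 3, 9.97%, 11.4% and 12.9% in the labelled MLL4 knockdown, against 14.7%, 16.7% and 16.7% in wild type, with no overlap between groups. Aldoc took 2.52%, 3.69% and 3.31% of the counts of Aldoa and Aldoc in the UTX knockout, 1.23%, 1.82% and 1.98% in the labelled MLL4 knockdown, against 1.74%, 1.94% and 1.93% in wild type, so the UTX knockout lay above the others, which overlapped. Eno2 took 0.727%, 1.18% and 0.9999% of the counts of Eno1 and Eno2 in the UTX knockout, 0.238%, 0.394% and 0.3802% in the labelled MLL4 knockdown, against 0.711%, 0.692% and 0.9195% in wild type, so the labelled MLL4 knockdown lay below the others. For phosphofructokinase, Pfkp took 37.2%, 44.8% and 40.5% of the counts of its 3 subunits in the UTX knockout, 29.4%, 30.3% and 33.8% in the labelled MLL4 knockdown, against 31.1%, 32.01% and 39.8% in wild type, so the UTX knockout lay above the labelled MLL4 knockdown and wild type overlapped with both. Slc2a3 took 73.3%, 73.2% and 66.4% of the counts of the 2 glucose transporters in the UTX knockout, 75.7%, 73.3% and 69.9% in the labelled MLL4 knockdown, against 68.7%, 64.3% and 65.6% in wild type. The labelled MLL4 knockdown lay above wild type, and the UTX knockout overlapped with both. These shares were not tested, and they compare counts, not counts per length.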
